A study of Mus musculus with 21 samples.

Results

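The genes described are the 47 protein-coding subunits of the glutamate and GABA receptors among 54532 genes listed. They were picked by a rule on symbols that uses no measured level, but with earlier results of these data known. They fall into 7 receptor classes, namely 4 AMPA, 5 kainate, 2 delta, 7 NMDA and 8 metabotropic glutamate receptor genes, 19 GABA-A and 2 GABA-B receptor genes. Their mRNA levels come from 7 lines of mouse glioma stem-like cells (21 libraries), cultures derived from genetically engineered mice and kept as low-adherence cultures in neural stem cell medium with EGF, bFGF and heparin at low oxygen, with no treatment labelled. The IDH1 mutant lines were PIC144-1, PIC144-3, PIC496-3 and PIC496-4, the IDH1 WT lines were PC134-0, PC308-1 and PC326-1, and each line had 3 libraries. IDH1 encodes a cytosolic isocitrate dehydrogenase that is often mutated in human glioma. The labels do not give the allele, the promoter or Cre that drove it, the driver genes shared by the lines, the age of the animals, or whether lines with the same number came from the same animal. Genotype belongs to a line, so a line's mean over 3 libraries counts once (n = 4 mutant lines and n = 3 WT lines).

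Glutamate is the main excitatory transmitter of the brain and GABA the main inhibitory one. AMPA, kainate and NMDA receptors are cation channels opened by glutamate, metabotropic glutamate receptors act through G proteins, GABA-A receptors are chloride channels, and GABA-B receptors act through G proteins. Each channel is built of several subunits, and the subunits present set which channels a cell can make. Cells of the oligodendrocyte lineage and astrocytes also carry such receptors, and neurons are known to form synapses with glioma cells through AMPA receptors.

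Recovered fragments numbered 15011668 to 21966351 per library. Levels are FPKM, fragments relative to the length of the gene and the size of the library. That length covers all annotated exons of a gene (15548 bases for Gria2 and 6305 for Gria4). The transcripts expressed may be shorter, so comparisons between genes, and shares of a class, are approximate. The labelled cell type was checked against its markers. Sox2 and Nes, markers of neural stem cells, had line means of 103.5 to 227.8 FPKM and 46.9 to 80.5 FPKM. Sox9, of the same list, ran from 15.1 to 140.4 FPKM. Prom1, the remaining stem-like marker, was not high throughout, at 0.0948 FPKM in PIC144-1, 0.147 FPKM in PIC496-3 and 4.56 FPKM in PIC144-3. Gfap, the astrocyte filament, stayed at or below 0.186 FPKM in each line, and of 8 neuron markers Rbfox3, Snap25 and Stmn2 stayed under 0.5 FPKM. The other neuron markers reached 6.54 FPKM (Syt1), 1.53 FPKM (Nefl), 1.48 FPKM (Syp), 28.1 FPKM (Tubb3) and 44.2 FPKM (Map2) in their highest lines. Summed markers of oligodendrocytes, microglia, endothelium and mural cells reached at most 1.22, 1.38, 0.791 and 1.90 FPKM in any line, and summed astrocyte markers ran from 14.2 to 40.5 FPKM. PIC496-4 was the line with the lowest summed stem-like markers (182.2 FPKM, against 276.1 to 409.7 in the other 6 lines) and the lowest summed oligodendrocyte progenitor markers (515.8 against 697.4 to 1175 FPKM). Within the stem-like sum, Sox2 and Sox9 were lowest in PIC496-4, while Nes and Prom1 were not. PIC496-4 also had the fewest genes at 0.5 FPKM or more (12571, against 12851 to 13295).

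Of the 47 subunits, 23 reached a line mean of 0.5 FPKM in at least 1 line. The other 24 stayed under that level, the highest being Gabra4 at 0.494 FPKM in PIC144-3, and 4 of them, Grm6 and Gabra6 included, had no fragment in any library. The lowest of the 23 on its best line was Gabrr2 at 0.641 FPKM. Only Grik5, Grm5 and Gabbr1 were at 0.5 FPKM or more in all 7 lines, whereas Grin2d reached it in PC308-1 alone. By class, 3 AMPA, 4 kainate, 3 NMDA, 3 metabotropic and 2 GABA-B subunits were among the 23.

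**Figure D1:**
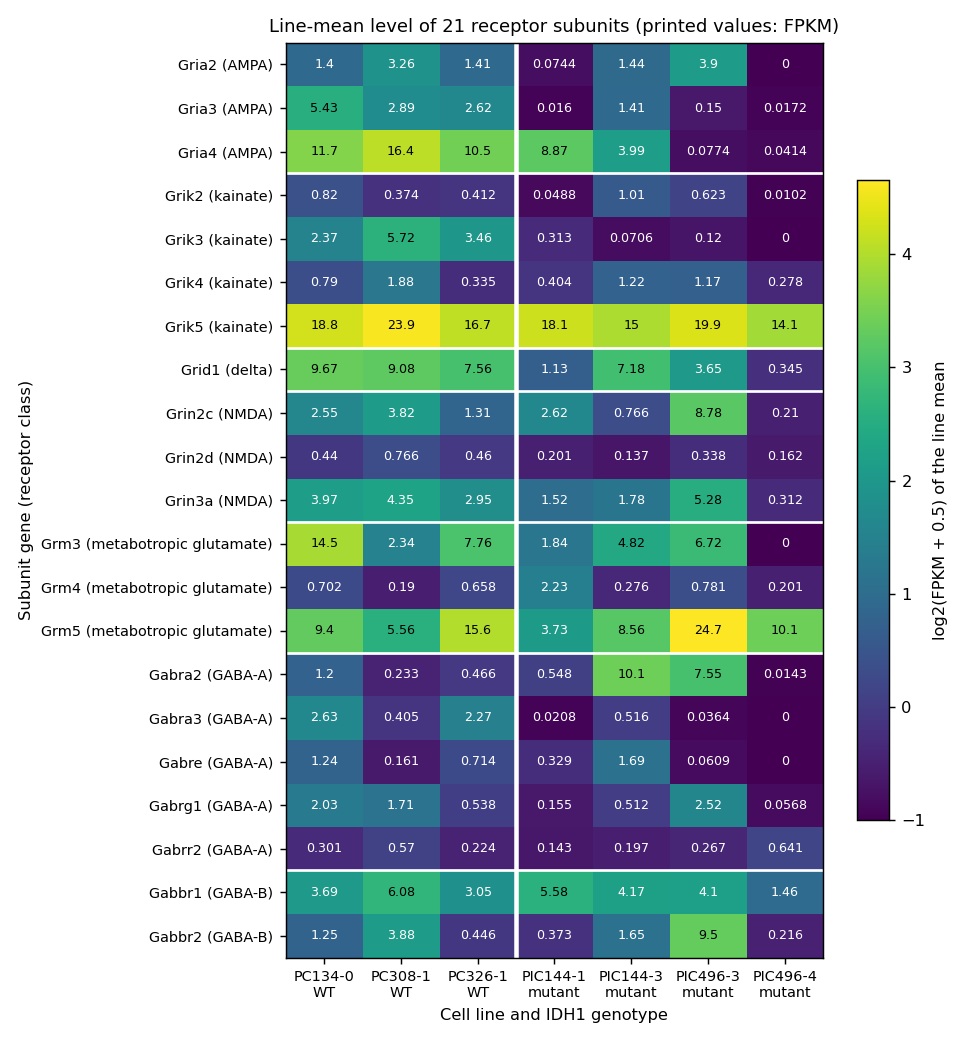
Line-mean FPKM of 21 of the 23 subunits that reached 0.5 FPKM in a line (rows, grouped by receptor class) in the 3 IDH1 WT and 4 IDH1 mutant lines (columns), with colour on a log2(FPKM + 0.5) scale. Grik5 is bright in all 7 lines, Grik3 is dark in the 4 IDH1 mutant lines, and PIC496-4 is the darkest column.

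A subunit could be tested between genotypes where its line mean was 0.5 FPKM or more in at least 3 lines, which 20 of the 47 did. Grik3 passed that filter only through the 3 IDH1 WT lines. In limma on log2(FPKM + 0.5) of line means, adjusted over all 13379 genes tested, 1 of the 20 was called, Grik3, which was lower in the IDH1 mutant lines. Across all genes 0.12% were called in either direction and 0.0972% lower in IDH1 mutant lines. At an unadjusted p under 0.05 there were 5 subunits (Grik3, Gria3, Gabra3, Gria4 and Grid1), each lower in the mutant lines, against 12.8% of all genes in either direction and 6.7% in that direction. The line values of the genotypes did not overlap for 4 subunits, Grik3, Gria3, Gria4 and Grid1, again with the mutant lines below, against 13.3% of all genes in either direction and 6.43% in that direction. These counts describe the subunits that passed the filter. The difference was negative for 16 of the 20 and positive for 4, with a median of -0.38 on the log2 scale against 0.01 over all genes tested. Of all genes tested, 49.2% had a negative difference. This skew of the subunits leaned on PIC496-4, without which 12 of 20 were negative, with a median of -0.15. With lines sharing a number averaged, 12 of 18 were negative.

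**Figure D2:**
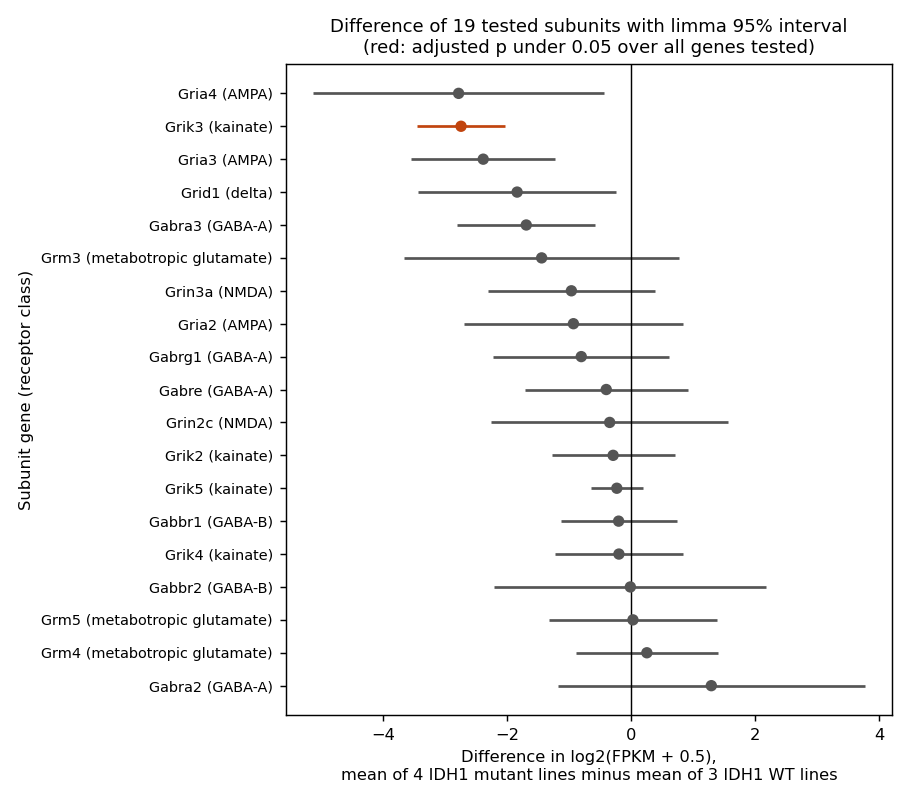
Difference in log2(FPKM + 0.5) between the mean of the 4 IDH1 mutant and of the 3 IDH1 WT lines for 19 of the 20 tested subunits, with the limma 95% interval as a bar and the subunit called at an adjusted p under 0.05 in red. Grik3 sits at -2.75 with an interval from -3.46 to -2.03, and Gria4 has a similar difference with a wider interval.

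Kainate receptors are assembled from Grik1, Grik2 and Grik3, which can form channels by themselves, together with Grik4 and Grik5, the high-affinity subunits that need one of the former as partner. Grik3 (ENSMUSG00000001985) spans chr4:125490700-125714173 on the plus strand of GRCm38. Its 3 libraries gave 2.41, 2.24 and 2.46 FPKM in PC134-0, 5.77, 5.98 and 5.41 FPKM in PC308-1, and 3.75, 3.04 and 3.59 FPKM in PC326-1. The mutant libraries gave 0.255, 0.354 and 0.330 FPKM in PIC144-1, 0.133, 0.0532 and 0.0259 FPKM in PIC144-3, and 0.0349, 0.135 and 0.191 FPKM in PIC496-3. In PIC496-4 no Grik3 fragment was counted in any library. Each of the 12 mutant libraries thus lay below each of the 9 IDH1 WT libraries.

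Grik3 averaged 0.126 ± 0.134 FPKM over the mutant lines (SD, n = 4) and 3.85 ± 1.71 FPKM over the WT lines (SD, n = 3), a ratio of means of 30.6. The difference on the log2(FPKM + 0.5) scale was -2.75 (SE 0.31, limma adjusted p = 0.0287), and an exact two-sided permutation of the 7 lines (35 splits) had p = 0.0286, its smallest possible value. The summed fragments were 141, 34, 56 and 0 in PIC144-1, PIC144-3, PIC496-3 and PIC496-4 and 1092, 2698 and 1521 in PC134-0, PC308-1 and PC326-1. With a floor of 3 fragments over its 3 libraries, PIC496-4 was at least 910-fold lower than PC308-1. The pseudocount compresses the log2 difference, since all mutant levels lie under it. Because Grik3 entered the test only through the lines in which it is high, both p-values describe a gene that had to differ. The limma call ended with no filter (adjusted p = 0.122), with lines sharing a number averaged (0.180), with a pseudocount of 0.1 FPKM (0.0760) and on leaving out PIC144-1 (0.0705), PIC144-3 (0.0693), PIC496-3 (0.0864) or PIC496-4 (0.126). With the tested genes kept it also ended without PC134-0 (0.0835) or PC326-1 (0.182), but not without PC308-1 (0.0371). The 10 tested genes nearest to Grik3, 5 on each side, had log2 differences from -0.42 to 0.84, 2 lower and 8 higher in mutant lines, and none was called in limma (2 had an unadjusted p under 0.05, both higher in mutant lines).

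Grik5 was the kainate subunit with the highest level in each line. Its libraries gave 18.1, 16.6 and 19.5 FPKM in PIC144-1, 15.7, 14.3 and 14.9 FPKM in PIC144-3, 20.1, 19.3 and 20.4 FPKM in PIC496-3, and 14.3, 13.0 and 14.9 FPKM in PIC496-4. The IDH1 WT libraries gave 19.8, 17.9 and 18.9 FPKM in PC134-0, 24.2, 21.7 and 25.7 FPKM in PC308-1, and 17.0, 16.7 and 16.4 FPKM in PC326-1. The lines of the genotypes overlapped, and the highest and lowest line means differed by 1.7-fold. The mutant minus WT difference was -0.23 on the log2 scale (limma 95% interval -0.65 to 0.18, adjusted p = 0.589). Grik5 made up 74.9 ± 2.52% of the summed kainate FPKM in PC308-1 (SD over libraries, n = 3), the lowest share, and 97.9 ± 0.887% in PIC496-4, the highest (SD over libraries, n = 3).

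Grik2, a channel-forming partner of Grik5, was far lower, and its mutant lines lay both above and below the IDH1 WT lines. Its line means were 0.0488, 1.01, 0.623 and 0.0102 FPKM in PIC144-1, PIC144-3, PIC496-3 and PIC496-4, with 0.820 FPKM in PC134-0, 0.374 FPKM in PC308-1 and 0.412 FPKM in PC326-1 (log2 difference -0.29, limma adjusted p = 0.783). Grik4 ran from 0.278 to 1.22 FPKM over the mutant lines and from 0.335 to 1.88 FPKM over the WT lines (-0.20, adjusted p = 0.866). Grik1 did not pass 0.145 FPKM in any line. In PIC496-4, therefore, Grik5 was at 14.1 FPKM while each of the 3 channel-forming subunits was at or below 0.0102 FPKM. In PIC144-1 the channel-forming subunits were led by Grik3 at 0.313 FPKM.

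The stretch before the start of 3 subunits is shown because these subunits span the range of patterns, Grik3 being low in all mutant lines, Gria4 in some, and Grik5 in none. The 250 bases upstream of the RefSeq start are given 5′ to 3′ on the strand of the gene in GRCm38.p6, with CG steps, the sites at which mammalian DNA is methylated, in capitals. The windows lie at chr4:125490446-125490695 on the plus strand for Grik3, chr9:4796235-4796484 on the minus strand for Gria4 and chr7:25072370-25072619 on the minus strand for Grik5.
Grik3: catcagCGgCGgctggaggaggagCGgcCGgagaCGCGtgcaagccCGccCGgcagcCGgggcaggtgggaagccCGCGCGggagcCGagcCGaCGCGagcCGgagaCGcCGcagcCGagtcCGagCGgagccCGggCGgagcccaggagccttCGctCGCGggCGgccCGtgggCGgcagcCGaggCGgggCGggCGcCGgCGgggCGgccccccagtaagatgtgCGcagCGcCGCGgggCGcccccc
Gria4: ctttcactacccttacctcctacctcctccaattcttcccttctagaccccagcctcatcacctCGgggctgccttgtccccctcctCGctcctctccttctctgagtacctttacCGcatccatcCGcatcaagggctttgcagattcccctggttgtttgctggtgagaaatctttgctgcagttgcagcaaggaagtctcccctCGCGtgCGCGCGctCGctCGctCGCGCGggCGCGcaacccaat
Grik5: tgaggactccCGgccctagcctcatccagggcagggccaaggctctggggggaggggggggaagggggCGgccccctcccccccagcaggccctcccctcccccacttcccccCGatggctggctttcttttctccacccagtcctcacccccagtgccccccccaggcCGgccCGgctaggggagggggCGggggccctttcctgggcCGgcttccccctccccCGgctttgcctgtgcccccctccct
RefSeq windows were found for 32 of the 47 subunits and for 16 of the 23 that reached 0.5 FPKM. Grik3 held 42 CG steps at 82.0% GC, and 0.865% of the 32851 windows in the table hold as many or more. Gria4 held 16 CG steps at 58.8% GC (25.4% of windows hold as many) and Grik5 held 8 at 75.2% GC (43.0% of windows), where the median window holds 6. The motif GGGCGG, searched on both strands, occurred 6 times before Grik3, 0 times before Gria4 and 2 times before Grik5, and 32.7% of all windows hold it. TATAAA (12.4% of windows), CACGTG (6.02%) and TTCAGCACC (0.301%) were not present in these 3 windows on either strand. The log2 difference between genotypes was -2.75 for Grik3, -2.79 for Gria4 and -0.23 for Grik5. Among the other subunits with windows, Gabbr2 (37) and Grik4 (36) held the most CG steps, with log2 differences of -0.01 and -0.20. Gabra3 windows held the fewest, 0, with a log2 difference of -1.69. A link between CG steps and level was not tested. DNA methylation was not measured in these libraries, and the letters describe the windows only.

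AMPA receptors carry most fast excitation, and Gria2, when its mRNA has been edited, makes the channel nearly impermeable to calcium. Gria4 (ENSMUSG00000025892, chr9:4417896-4796234, minus strand) was the most abundant AMPA subunit in 6 of the 7 lines, all but PIC496-3. In PIC496-4 that lead is uncertain, resting on 14 fragments against 9 for Gria3. Gria4 libraries gave 11.5, 12.7 and 10.9 FPKM in PC134-0, 16.0, 17.8 and 15.4 FPKM in PC308-1, and 10.9, 10.4 and 10.2 FPKM in PC326-1. In the mutant lines they gave 9.26, 9.15 and 8.20 FPKM in PIC144-1 and 3.48, 4.65 and 3.83 FPKM in PIC144-3. The libraries of PIC496-3 gave 0.0696, 0.0166 and 0.146 FPKM, and those of PIC496-4 gave 0.0288, 0.0609 and 0.0344 FPKM. Both PIC144 lines thus carried Gria4 at several FPKM, PIC144-1 close beneath the lowest IDH1 WT line, whereas both PIC496 lines nearly lacked it. The means were 3.24 ± 4.18 FPKM (SD, n = 4 mutant lines) and 12.9 ± 3.13 FPKM (SD, n = 3 IDH1 WT lines). The log2 difference of -2.79 (SE 1.01) did not pass the test (limma adjusted p = 0.354, exact permutation p = 0.0857).

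Gria3 (ENSMUSG00000001986, X chromosome 41400854 to 41678601, plus strand) had libraries at 5.15, 6.02 and 5.13 FPKM in PC134-0, 2.71, 3.28 and 2.67 FPKM in PC308-1, and 2.99, 2.71 and 2.16 FPKM in PC326-1. PIC144-3 had 1.43, 1.56 and 1.23 FPKM and PIC496-3 had 0.172, 0.149 and 0.131 FPKM. PIC144-1 and PIC496-4 lay at 0.0160 and 0.0172 FPKM on average, from 8 and 9 fragments over 3 libraries. All mutant lines lay below all IDH1 WT lines, and PIC144-3 stood well above the other 3 mutant lines. The means of 0.397 ± 0.675 FPKM (SD, n = 4) and 3.65 ± 1.55 FPKM (SD, n = 3) differed by -2.39 on the log2 scale (SE 0.50), which did not pass the test (limma adjusted p = 0.201, exact permutation p = 0.0571). Without PIC144-3 it did (log2 difference -2.83, limma adjusted p = 0.0422), but then Gria3 passed the filter only through the 3 IDH1 WT lines in which it is high, so that p gives no independent support.

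Gria2 (ENSMUSG00000033981, chr3:80681450-80802835) did not follow the order of the other AMPA subunits. Its libraries gave 3.96, 3.85 and 3.87 FPKM in PIC496-3, 1.43, 1.35 and 1.54 FPKM in PIC144-3, and 0.0814, 0.0705 and 0.0713 FPKM in PIC144-1. No Gria2 fragment was counted in PIC496-4, which was at least 1074-fold lower than PIC496-3. The IDH1 WT lines lay at 1.40 ± 0.152 FPKM in PC134-0, 3.26 ± 0.246 FPKM in PC308-1 and 1.41 ± 0.0862 FPKM in PC326-1 (SD over libraries, n = 3 each). The mutant lines therefore lay both above and below the IDH1 WT lines (log2 difference -0.93, limma adjusted p = 0.607).

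The makeup of the AMPA class differed from line to line. Gria2 made up 93.0 ± 0.886% of the summed AMPA FPKM in PIC496-3 and 0.822 ± 0.0593% in PIC144-1, where Gria4 made up 97.8 ± 0.482% (SD over libraries, n = 3 each). In PIC144-3 the Gria2 share was 21.2 ± 2.92%, and in the IDH1 WT lines it was 7.52 ± 0.188% in PC134-0, 14.5 ± 1.84% in PC308-1 and 9.62 ± 0.397% in PC326-1 (SD over libraries, n = 3 each). Gria1 stayed at or below 0.108 FPKM in each line. The class summed to 18.6 FPKM in PC134-0, 22.6 FPKM in PC308-1 and 14.6 FPKM in PC326-1 and to 9.07, 6.85, 4.19 and 0.0586 FPKM in PIC144-1, PIC144-3, PIC496-3 and PIC496-4, so all mutant lines summed to less than each IDH1 WT line. Summed neuronal markers were also lower in each mutant line than in each IDH1 WT line. The 8 summed to 28.2 to 42.6 FPKM in mutant lines and 44.5 to 74.8 FPKM in IDH1 WT lines, mostly Map2 and Tubb3. Syp, a synaptic vesicle protein, lay at 0.354 ± 0.221 FPKM (SD, n = 4) and 1.27 ± 0.219 FPKM (SD, n = 3). Lines of the genotypes did not overlap for Syp (limma adjusted p = 0.242) or Map2 (limma adjusted p = 0.411), and Syt1 and Tubb3 overlapped. The markers did not all move the same way. Means over mutant lines were higher than over IDH1 WT lines for Nefl (0.693 against 0.0603 FPKM) and Syt1 (2.28 against 1.53 FPKM). The same held for Stmn2 (0.0750 against 0.0140 FPKM) and Snap25 (0.0655 against 0.0514 FPKM). They were lower for Map2, Tubb3, Syp and Rbfox3. The higher Syt1 and Stmn2 means rested on PIC144-1, at 6.54 and 0.294 FPKM. On the log2 scale the 4 neuron markers tested were all lower in mutant lines, Syt1 included (-0.14). The part of these markers in the AMPA differences was not tested, and in bulk RNA fewer cells with a transcript cannot be told apart from less of it per cell.

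**Figure D3:**
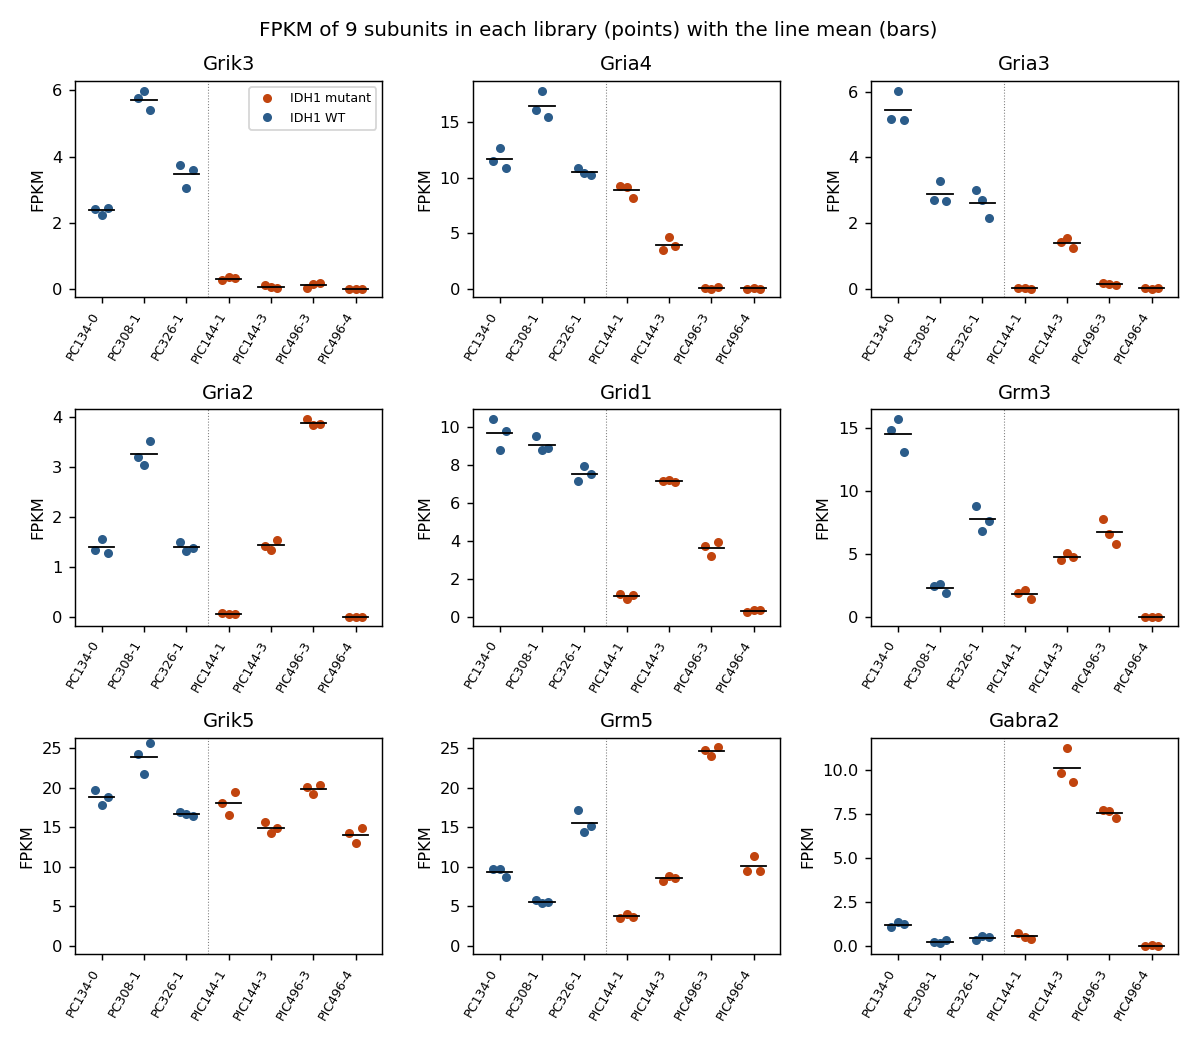
FPKM of Grik3, Gria4, Gria3, Gria2, Grid1, Grm3, Grik5, Grm5 and Gabra2 in each library (points, blue for IDH1 WT and orange for IDH1 mutant) with the line mean as a bar. Libraries of a line lie close together, the mutant lines spread widely for Gria4, Gria2, Grid1 and Gabra2, and for Grik3 all 12 mutant libraries lie at or below 0.354 FPKM.

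Auxiliary subunits that bind AMPA and kainate receptors and set their gating and trafficking were read as context. Of 14 listed, 9 could be tested and none was called in limma. An unadjusted p under 0.05 was found for 1 (11.1%), against 12.8% of all genes tested. The differences were negative for 6 of the 9 (66.7%, against 49.2% of all genes tested), with a median of -0.05. The most abundant was the TARP gene Cacng7 at 29.5 ± 16.7 FPKM over the mutant lines (SD, n = 4) and 26.8 ± 10.6 FPKM over the WT lines (SD, n = 3). Cacng4, another TARP, lay at 7.34 ± 5.34 FPKM (SD, n = 4) and 12.9 ± 3.24 FPKM (SD, n = 3), with an adjusted p of 0.420. Cnih2, a cornichon that slows AMPA receptor closing, lay at 3.15 ± 2.51 FPKM (SD, n = 4) and 9.06 ± 1.23 FPKM (SD, n = 3), a log2 difference of -1.70 with an adjusted p of 0.329. Adarb1, whose product edits the Gria2 message, lay at 3.16 ± 1.74 FPKM (SD, n = 4) and 1.73 ± 0.863 FPKM (SD, n = 3) with an adjusted p of 0.517, and Adar, the other editing enzyme tested, at 6.52 ± 1.03 FPKM (SD, n = 4) and 6.21 ± 0.295 FPKM (SD, n = 3).

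Delta subunits resemble glutamate receptors in sequence and act mainly as adhesion proteins at synapses. Grid1 (ENSMUSG00000041078, chr14:34820108-35583379) gave 10.4, 8.78 and 9.82 FPKM in PC134-0, 9.54, 8.79 and 8.90 FPKM in PC308-1, and 7.18, 7.95 and 7.55 FPKM in PC326-1. The mutant libraries gave 7.19, 7.22 and 7.13 FPKM in PIC144-3, 3.74, 3.23 and 3.98 FPKM in PIC496-3, 1.23, 0.977 and 1.17 FPKM in PIC144-1, and 0.294, 0.368 and 0.373 FPKM in PIC496-4. The line means did not overlap between genotypes, but PIC144-3 was within 1 FPKM of PC326-1 and their libraries overlapped. The log2 difference was -1.84 (SE 0.69, limma adjusted p = 0.362, exact permutation p = 0.0571).

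NMDA receptors need Grin1, which is part of every such channel, joined by glutamate-binding Grin2 or glycine-binding Grin3 subunits. Grin1 was low in all lines, from 0.119 ± 0.0301 FPKM in PIC144-1 to 0.483 ± 0.0903 FPKM in PIC496-3 (SD over libraries, n = 3 each). A stretch of 13.5% of its exonic bases is also covered by Grin1os on the opposite strand. Grin3a and Grin2c were the leading members. Grin2c lay at 8.78 ± 0.852 FPKM in PIC496-3, 2.62 ± 0.285 FPKM in PIC144-1, 0.766 ± 0.0401 FPKM in PIC144-3 and 0.210 ± 0.0611 FPKM in PIC496-4 (SD over libraries, n = 3 each). The IDH1 WT lines, PC134-0 with 2.55, PC308-1 with 3.82 and PC326-1 with 1.31 FPKM, fell inside that range (log2 difference -0.35, limma adjusted p = 0.875).

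Grin3a, which lowers calcium entry in the channels it joins, lay at 5.28 FPKM in PIC496-3, 1.78 FPKM in PIC144-3, 1.52 FPKM in PIC144-1 and 0.312 FPKM in PIC496-4. It lay at 3.97 FPKM in PC134-0, 4.35 FPKM in PC308-1 and 2.95 FPKM in PC326-1 (log2 difference -0.97, limma adjusted p = 0.498). PIC496-3 thus had the highest and PIC496-4 the lowest level of both Grin2c and Grin3a. Grin1 made up 1.95% to 3.24% of the summed NMDA FPKM in the IDH1 WT lines, 2.58% to 7.38% in 3 mutant lines and 20.4% in PIC496-4, where the class summed to 0.977 FPKM. Grin2d, untested between genotypes, had 0.440, 0.766 and 0.460 FPKM over the WT lines and 0.137 to 0.338 FPKM over the mutant lines, and Grin2a and Grin2b did not pass 0.249 and 0.266 FPKM.

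Metabotropic glutamate receptors were led by Grm5, which couples to calcium release through Gq and is common in neural progenitors and young astrocytes. Grm5 (ENSMUSG00000049583, chr7:87584168-88134907) gave 24.8, 24.0 and 25.2 FPKM in PIC496-3, 9.48, 11.4 and 9.50 FPKM in PIC496-4, 8.21, 8.89 and 8.57 FPKM in PIC144-3, and 3.56, 3.98 and 3.66 FPKM in PIC144-1. The IDH1 WT libraries gave 9.75, 9.79 and 8.67 FPKM in PC134-0, 5.79, 5.40 and 5.49 FPKM in PC308-1, and 17.2, 14.4 and 15.1 FPKM in PC326-1. The mutant lines held both the highest and the lowest level. The genotype difference was 0.03 on the log2 scale (limma 95% interval -1.33 to 1.38, adjusted p = 0.988), which allows more than a doubling in either direction.

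Grm3, a Gi-coupled receptor of glia and neurons, spans chr5:9485541-9725170. It gave 14.8, 15.7 and 13.1 FPKM in PC134-0, 2.49, 2.62 and 1.90 FPKM in PC308-1, and 8.79, 6.85 and 7.65 FPKM in PC326-1. The mutant libraries gave 1.90, 2.16 and 1.48 FPKM in PIC144-1, 4.54, 5.11 and 4.82 FPKM in PIC144-3, and 7.77, 6.61 and 5.79 FPKM in PIC496-3, while PIC496-4 had no fragment and was at least 785-fold lower than PC134-0. The genotypes overlapped (log2 difference -1.45, limma adjusted p = 0.531). Grm4, a presynaptic Gi-coupled receptor, was highest in PIC144-1 at 2.23 FPKM and lay at 0.190 to 0.781 FPKM in the other 6 lines. In PIC496-4, Grm5 made up 98.0 ± 0.145% of the class (SD over libraries, n = 3), against 38.2% in PC134-0, where Grm3 was the more abundant.

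GABA-A receptors combine alpha, beta and other subunits such as gamma. Gabra2, Gabra3, Gabre, Gabrg1 and Gabrr2 were among those that reached 0.5 FPKM in a line. Gabra2 gave 9.81, 11.3 and 9.31 FPKM in PIC144-3 and 7.71, 7.67 and 7.29 FPKM in PIC496-3. It gave 0.734, 0.513 and 0.395 FPKM in PIC144-1 and 0, 0.0359 and 0.0071 FPKM in PIC496-4. The IDH1 WT lines lay at 1.20 ± 0.145 FPKM in PC134-0, 0.233 ± 0.0950 FPKM in PC308-1 and 0.466 ± 0.127 FPKM in PC326-1 (SD over libraries, n = 3 each). A pair of mutant lines, 1 from each PIC number, thus stood above all others. The genotype difference of 1.29 on the log2 scale had an interval from -1.19 to 3.77 (limma, adjusted p = 0.609).

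Gabra3, on the X chromosome, gave 2.53, 3.17 and 2.18 FPKM in PC134-0, 2.01, 2.50 and 2.31 FPKM in PC326-1, and 0.339, 0.572 and 0.303 FPKM in PC308-1. Among mutant lines PIC144-3 had 0.419, 0.502 and 0.628 FPKM, while PIC144-1 and PIC496-3 lay at 0.0208 and 0.0364 FPKM from 4 and 7 fragments and PIC496-4 had none. PIC144-3 and PC308-1 overlapped, and the difference of -1.69 on the log2 scale (SE 0.48) did not pass the test (limma adjusted p = 0.281, exact permutation p = 0.0857). Across the 483 X-linked genes tested the median log2 difference was -0.04 and none was called in limma. An unadjusted p under 0.05 was found for 75 of them (15.5%), against 12.8% of all genes tested. Xist, the RNA that silences an X chromosome, lay at 8.11 and 15.6 FPKM in PIC496-3 and PIC496-4 and at or below 0.0139 FPKM in the other lines, and its part in the levels of Gria3, Gabra3 and Gabre was not tested. Gabre, a neighbour of Gabra3, was highest in PIC144-3 at 1.69 FPKM and PC134-0 at 1.24 FPKM and had no fragment in PIC496-4 (log2 difference -0.40, limma adjusted p = 0.773).

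Gabrb1 and Gabrb2, beta subunits, stayed at or below 0.039 FPKM in each line. Gabrg1, a gamma subunit also found in glia, lay at 2.52 FPKM in PIC496-3, 2.03 FPKM in PC134-0 and 1.71 FPKM in PC308-1 and at or below 0.538 FPKM in the other 4 lines (-0.81, adjusted p = 0.580). Gabrr2, a rho subunit best known from the retina, was the only one of the 23 with its highest level in PIC496-4, at 0.641 FPKM. Gabrg1, Gabra2, Gabra4 and Gabrb1 lie side by side on chromosome 5 (70751047 to 72149037). Within that cluster Gabra2 and Gabra4 were both highest in PIC144-3, at 10.1 and 0.494 FPKM, Gabrg1 in PIC496-3, and Gabrb1 was near 0 in all lines.

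GABA-B receptors work as a pair of Gabbr1, which binds GABA, and Gabbr2, which signals to the G protein. Gabbr1 lay at 5.58 ± 0.543, 4.17 ± 0.160, 4.10 ± 0.256 and 1.46 ± 0.0658 FPKM in PIC144-1, PIC144-3, PIC496-3 and PIC496-4, and at 3.69 ± 0.138 FPKM in PC134-0, 6.08 ± 0.433 FPKM in PC308-1 and 3.05 ± 0.440 FPKM in PC326-1 (SD over libraries, n = 3 each). Gabbr2 ranged more widely. Its libraries gave 9.19, 9.63 and 9.68 FPKM in PIC496-3, 1.58, 1.59 and 1.77 FPKM in PIC144-3, 0.406, 0.362 and 0.350 FPKM in PIC144-1, and 0.217, 0.148 and 0.284 FPKM in PIC496-4. The IDH1 WT lines had 1.25 FPKM (PC134-0), 3.88 FPKM (PC308-1) and 0.446 FPKM (PC326-1). Gabbr2 exceeded Gabbr1 in PIC496-3 only, and in PIC144-1 it was at 0.373 FPKM against 5.58 FPKM. Neither differed between genotypes past the test (log2 differences -0.20 and -0.01, limma adjusted p = 0.847 and 0.995).

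Differences between lines of the same genotype were wide. In a limma F test over the 21 libraries, 20 of 20 subunits differed among the 4 mutant lines and 20 of 20 among the 3 IDH1 WT lines, against 80.7% and 61.4% of all genes tested. The labels call the 3 libraries of a line biological replicates without saying that they were separate cultures, so these p-values measure only the spread between libraries, which may be technical. Among mutant lines the log2 range between the highest and lowest line exceeded 2 for 11 of the 20 subunits (55%), against 7.42% of all genes tested, and the median range was 2.28 against 0.65. Among IDH1 WT lines it exceeded 2 for 2 of the 20 (10%) against 2.21% of genes, with a median range of 1.05 against 0.41. The adjusted F-test p among mutant lines ran from 3.17e-17 for Gria4 to 1.11e-04 for Grik3.

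PIC496-4 was the lowest of the 7 lines for 17 of the 23 subunits that reached 0.5 FPKM, and for 16 of the 20 tested, whereas it was lowest for 22.4% of all genes tested. It kept 5 subunits at 0.5 FPKM or more (Grik5, Grm5, Gabbr1 and Gabrr2 among them), while the other lines had 10 to 20. The median deviation of the 20 subunits from the mean of the 7 lines was -1.33 on the log2 scale in PIC496-4 and -0.74 in PIC144-1. In the other 5 lines it ran from 0.15 in PIC144-3 and PC326-1 to 0.69 in PC308-1. PIC496-3, which shares a number with PIC496-4, was the highest line for 6 of the 20 against 8.31% of genes. The stem-like and progenitor marker sums of PIC496-4, given above, were low alongside its receptor levels. Of the stem-like markers, Sox2 and Sox9 were lowest in PIC496-4, but Nes and Prom1 were not. Nes, at 62.5 FPKM, lay above the IDH1 WT lines, and Prom1, at 1.05 FPKM, lay above PIC144-1, PIC496-3 and PC308-1. The part of these markers in the receptor levels was not tested.

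**Figure D4:**
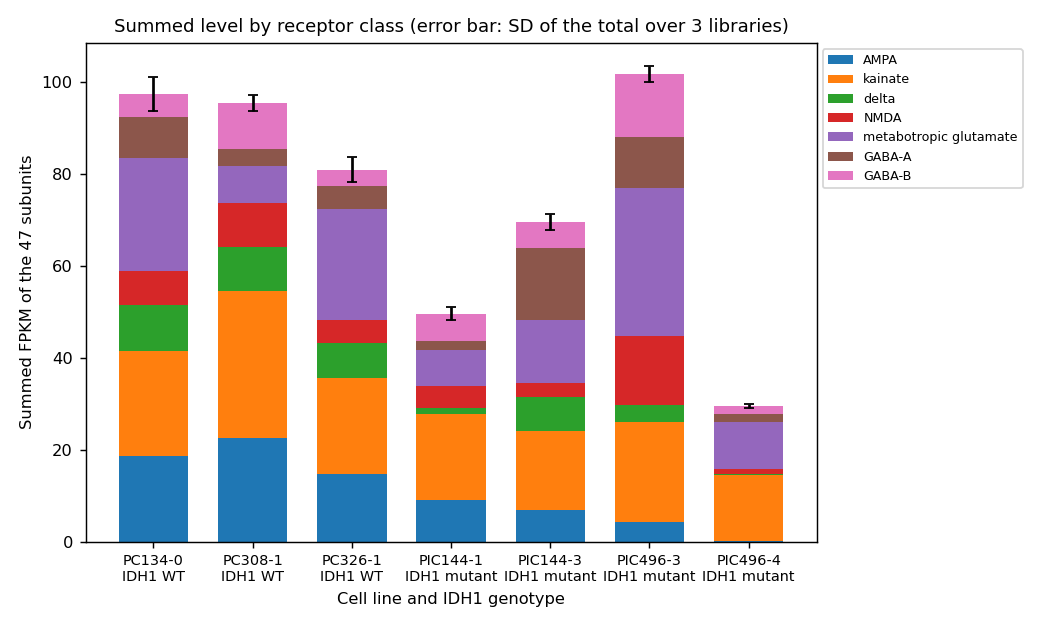
Summed FPKM of the 47 subunits per line, stacked by receptor class, with the SD of the total over 3 libraries as the error bar. The total runs from 29.5 FPKM in PIC496-4 to 101.7 FPKM in PIC496-3, and the AMPA layer is thickest in the 3 IDH1 WT lines.

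Summed over all 47 subunits, the level was 62.6 ± 30.8 FPKM over the mutant lines (SD, n = 4) and 91.3 ± 9.02 FPKM over the WT lines (SD, n = 3). PIC496-3, at 101.7 FPKM, was the highest of all lines and PIC496-4, at 29.5 FPKM, the lowest, so the genotypes overlapped. Kainate subunits summed to 14.3 to 21.8 FPKM in mutant lines, and PC326-1 lay within that range while PC134-0 and, at 31.9 FPKM, PC308-1 lay above it. GABA-A subunits summed to 1.80 to 15.7 FPKM in mutant lines and 3.69 to 8.93 FPKM in IDH1 WT lines, so mutant lines lay on both sides of them. The NMDA, metabotropic and GABA-B sums showed the same overlap, each with its highest value in PIC496-3.

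Partners of these receptors were read in the same way. Over all genes tested, 12.8% had an unadjusted p under 0.05 and 49.2% had a negative difference. Of 23 scaffold and synaptic adhesion genes 19 were tested and none was called in limma. An unadjusted p under 0.05 was found for 2 (10.5%), and 13 (68.4%) were negative, with a median of -0.24. Nlgn3, a synaptic adhesion protein known to promote glioma growth, lay at 0.0267 ± 0.0156 FPKM in mutant lines (SD, n = 4) and 1.29 ± 0.631 FPKM in IDH1 WT lines (SD, n = 3), a log2 difference of -1.71 with an adjusted p of 0.104, and it too passed the filter only through the IDH1 WT lines. Nlgn2, of inhibitory synapses, lay at 25.9 ± 8.24 FPKM (SD, n = 4) and 40.1 ± 4.24 FPKM (SD, n = 3), with an adjusted p of 0.385, and the most abundant of the list was Gabarap, at 83.6 ± 25.4 FPKM (SD, n = 4) and 111.8 ± 7.68 FPKM (SD, n = 3). Of 18 genes for glutamate and GABA synthesis, loading and uptake, 11 were tested and none was called. An unadjusted p under 0.05 was found for 2 (18.2%), and 9 (81.8%) were negative, with a median of -0.47. Abat, which breaks down GABA, lay at 2.50 ± 1.31 FPKM (SD, n = 4) and 7.38 ± 2.52 FPKM (SD, n = 3), with a limma adjusted p of 0.280. Slc6a11, a glial GABA transporter, lay at 6.55 ± 6.89 FPKM (SD, n = 4) and 23.2 ± 12.8 FPKM (SD, n = 3), with an adjusted p of 0.316. The most abundant was Slc38a2, an amino acid transporter, at 87.7 ± 5.37 FPKM (SD, n = 4) and 75.6 ± 20.3 FPKM (SD, n = 3).

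The 4 chloride transporters, which set the direction of GABA-A currents, were all tested and none was called in limma. An unadjusted p under 0.05 was found for 1 (25%), against 12.8% of all genes tested. The importer Slc12a2 was at 35.5 ± 8.15 FPKM in mutant lines (SD, n = 4) and 37.0 ± 5.91 FPKM in IDH1 WT lines (SD, n = 3). Slc12a7, a chloride exporter, had an adjusted p of 0.651. Of 5 glycine receptor subunits, which are related chloride channels, only Glrb could be tested, at 4.40 ± 4.48 FPKM (SD, n = 4) and 7.66 ± 2.01 FPKM (SD, n = 3) with an adjusted p of 0.519.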

How the data were processed

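Gene expression was measured by mRNA sequencing of polyA RNA in 21 libraries, strand-specific per the labels' protocols. The deposited values are FPKM per gene, made by the authors with HISAT2 and build mm39 per the submitters' processing notes. In the sources used here, the counter, annotation release and use of strand are not given. The deposited gene length (another quantity, in bases) and coordinates are those of GRCm38 for all 47 subunits, so GRCm38 positions are printed. FPKM times length gave whole fragments (100% of values under 1000 fragments, within 0.05), 15011668 to 21966351 per library. Counting floors of 3 fragments cover counting error only. No library pair within a line was a likely duplicate.

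Line means were tested in R 4.3.3 with limma 3.58.1 (trend and robust eBayes) on log2(FPKM + 0.5), for genes at 0.5 FPKM or more in at least 3 lines, with Benjamini-Hochberg adjustment over 13379 genes and calls at 0.05. Their p-values measure how lines vary, and lines with the same PIC number could come from 1 animal. Single subunits were also tested by exact permutation. Subunits at 0.5 FPKM or more in a line are named, and of each context list the called genes or else the 2 with the lowest p and the most abundant. The members and lists were chosen with earlier results of these data known. Alternatives were other pseudocounts, filters, scalings and fits, and leaving out each line or replicate. Figures used matplotlib 3.10.9. A few genes of the fixed lists are not reported here.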

Additional observations from a re-analysis of the deposited data

Results flagged for a closer look

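Among the 4 IDH1 mutant lines, 3 of 23 subunits had 1 line standing apart from the other 3, by a gap over range above Dixon's 95% critical value, and none of 8 class and total sums did. Chance alone flags about 1 in 20 such groups if values are normally distributed. FPKM that run from near 0 to several FPKM need not be, so the chance rate here is not known. For Gria3, PIC144-3 at 1.41 FPKM was the highest, with a ratio of 0.903, the other lines lying between 0.0160 and 0.150 FPKM. For Gabra3, also X-linked, PIC144-3 at 0.516 FPKM was again the highest, with a ratio of 0.930, the others lying between 0 and 0.0364 FPKM. For Gabbr2, PIC496-3 at 9.50 FPKM was the highest, with a ratio of 0.846, the others lying between 0.216 and 1.65 FPKM. Each of the 3 was high in all 3 libraries of that line.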

How the results depend on the processing

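The direction of Grik3 was the same under the 25 alternatives that tested it, from -2.06 to -6.49 on the log2 scale, but its call was not. In filtered fits Grik3 entered only through the IDH1 WT lines, in which it is high. Its direction there was set in advance and adds no support. Grik3 could not be tested where an IDH1 WT line was left out and the filter applied anew. The call was lost (limma adjusted p) with a pseudocount of 0.1 (0.0760), no filter (0.122) and FPKM of at least 2 (0.0805). It was also lost with lines sharing a number averaged (0.180) and with voom on recovered fragments (0.283). Leaving out each mutant line, PC134-0 or PC326-1 also ended it, at the values given with Grik3. The replicates left out in turn kept it (0.0293 to 0.0399). Gria3, Gria4, Grid1 and Gabra3 passed in the fits of 21 libraries (with the replicate block 4.36e-04, 0.0196, 0.0250 and 0.0187), in which libraries of a line share its random effect. Those fits take the same within-line correlation for every gene. They can understate the spread between lines where lines differ widely, as for Gria4 and Grid1 (F of 932 and 596 among mutant lines). Genotype belongs to the line, so these passes add no support to the fit of line means. Counts of subunits called (1 in the fit reported) were 0 under these 5, 5 in fits of the 21 libraries with the line as a random effect, with or without the replicate block, and 0 to 1 on leaving out a line or replicate. Genes called numbered 16 in the fit reported, 3 with no filter, 8 at FPKM of at least 2, 4 with lines averaged, 552 without and 440 with the replicate block over 21 libraries, and 0 with voom (1643 at an unadjusted p under 0.05). On leaving out a line they ranged from 0 to 48. Without PC134-0 or PC326-1, 0 genes were called (693 and 923 at an unadjusted p under 0.05), and with the genes tested kept, 1 and 3. Libraries with the same number had a median r of 0.0149 over 63 pairs (-0.12 to 0.29, 14 over 0.1), against -0.0107 for other numbers. Of 21 libraries, 12 were closest to their own number, so some may share a deviation. Not every pair deviated together, and the numbers were not taken to pair libraries. A replicate block in the F tests gave 10959 genes among mutant lines (10801 without) and 8468 among IDH1 WT lines (8215 without). In the F tests with no filter, 31 of 43 subunits were called among mutant lines, against 41.9% of all genes tested. Among IDH1 WT lines 32 of 43 were called, against 30.4% of genes. At FPKM of at least 2, 10 of 10 were called in each genotype, against 85.8% and 65.7% of genes. The counts moved since more or fewer subunits were tested.

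Of 19 of these subunits, 13 kept their direction throughout. Grm5 turned to -0.032 after rescaling to TPM, Grin2c to 0.20 with lines averaged, and Gabbr2 to 0.055 with a pseudocount of 1 and 0.56 with lines averaged. On leaving out a line or replicate, the log2 difference ranged from -0.41 to 0.44 for Grm5, -0.41 to 0.14 for Gabbr1, -1.03 to 0.21 for Grin2c, -0.81 to 0.57 for Gabbr2, -0.56 to 0.20 for Grik4 and -0.15 to 0.50 for Grm4. The cause of these shifts was not tested. Depth limits the subunits with few fragments, such as Gria3 in PIC144-1 (8) and Gabra3 in PIC496-3 (7).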
